A study of Mus musculus with 12 samples.

Results

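Cxcl2, Cxcl5, Il1b, Csf3 and Ptx3 encode secreted proteins that call neutrophils into injured tissue or act beside them there. They were followed in mouse skin over the days after a burn. The members are the probe sets whose annotation names exactly 1 of these 5 symbols. Each gene had 1 such probe set, so 5 of the 5599 genes named on the array were described, and no probe set named a member together with another gene. The skin came from mice given a thermal injury and was excised at 0 hours, 2 hours, 3 days or 14 days, with 3 samples at each time and 1 Affymetrix array per sample. The labels name no strain, sex, age or burn depth. They leave unsaid whether skin taken at 0 hours had been burnt, and whether the 3 samples of a time are 3 mice. A p-value here therefore reflects the spread among samples only, and that spread could be technical.

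Neutrophils leave the blood at a burn along gradients of CXC chemokines that carry a Glu-Leu-Arg motif, of which Cxcl2 and Cxcl5 are members in the mouse. These ligands act on the receptor Cxcr2. Interleukin 1 beta, the product of Il1b, is made mainly by myeloid cells and induces such chemokines in keratinocytes, fibroblasts and endothelium through Il1r1. Csf3 encodes G-CSF, which raises the output of neutrophils from bone marrow, and Ptx3 encodes a long pentraxin, a soluble pattern recognition protein that binds complement C1q and P-selectin.

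The promoters are shown because Cxcl2 and Il1b had the most similar courses of any pair of the 5 while Ptx3 ran differently. RefSeq windows (GRCm38.p6, 250 bases before to 50 after the start site) matched 3 of the 5 genes, Cxcl2, Il1b and Ptx3, and not Cxcl5 and Csf3. Both strands were searched for the consensus of the transcription factor NF-kB and for the TATA box letters TATAAA, and capitals mark a match. The windows are 120 bases long, read 5′ to 3′ on the gene's strand. They lie at chr5:90903779-90903898 (plus strand), chr2:129371140-129371259 (minus strand) and chr3:66219777-66219896 (plus strand).
Cxcl2: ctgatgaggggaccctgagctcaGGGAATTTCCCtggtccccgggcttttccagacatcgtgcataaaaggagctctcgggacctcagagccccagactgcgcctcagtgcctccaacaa
Il1b: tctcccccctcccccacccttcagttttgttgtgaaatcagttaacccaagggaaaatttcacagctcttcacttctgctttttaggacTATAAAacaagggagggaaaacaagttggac
Ptx3: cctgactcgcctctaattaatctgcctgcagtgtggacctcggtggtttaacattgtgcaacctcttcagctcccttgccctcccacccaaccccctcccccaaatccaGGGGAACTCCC
The Cxcl2 window held the NF-kB consensus, first base at -97 from the start site, as 2 overlapping matches on opposite strands. The Ptx3 window held 2 such overlapping matches at the start site, with first bases at -1 and 1, so only the first crosses it. Of the printed Ptx3 bases, 10 follow that site. The Il1b window held TATAAA at -31 and no NF-kB consensus in these letters, and its last 25 bases lie inside the span that RefSeq gives the gene. Of 32817 promoter windows in the table, 4.50% held the NF-kB consensus anywhere from 250 bases before to 50 after the start site and 13.6% held TATAAA, on either strand. In the 120 bases before the start site these shares were 1.84% and 6.35%. These matches describe letters, not bound sites, and their part in the courses of these genes was not tested.

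The deposited values are linear signal intensities without detection calls, so values under the 25th percentile of all arrays (225.375 signal units) were taken as near background. By that limit 31 of the 60 member values were near background, with 12 of 15 at 0 hours, 7 of 15 at 2 hours, 1 of 15 at 3 days and 11 of 15 at 14 days. Cxcl5 was near background on 9 of 12 arrays, Cxcl2 on 8, Il1b on 7, Ptx3 on 6 and Csf3 on 1. For tests, values were raised to that limit and log2-transformed. Where an array of the lower group sat at the limit and none of the higher group did, the fold is a lower bound, written "at least". All 5 genes passed the filter of being above the overall median (475.55) on at least 3 arrays, but Cxcl2, Cxcl5 and Il1b did so only through the 3 arrays of 3 days, so their passing already required a high value there. Tests are limma fits over 3477 genes and all 12 arrays, with Benjamini-Hochberg adjustment over the genes of each comparison. Errors after ± are standard errors of that fit (3 arrays per time) unless SD is named. Values set to the limit show no spread, and Cxcl2, Cxcl5 and Il1b were mostly at the limit outside 3 days. Their errors therefore understate the spread at 3 days, and their p-values may be too small.

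Array medians lay between 448.4 and 496.4, and the number of arrays limits the precision. The array of 0 hours replicate 3 stood furthest from the rest, with a mean Spearman correlation of 0.851 with the other 11 arrays against 0.885 to 0.920 for those 11. Skin identity was checked with a list of keratinocyte markers, of which 16 of 19 had a probe set and none was near background on all arrays. Skeletal muscle RNA was also present, and the summed intensity of 22 muscle genes was 353953 to 584975 at 0 hours, 319015 to 360207 at 2 hours, 122999.9 to 271073 at 3 days and 170845 to 246297 at 14 days. The log2 ratio of the 3′ to the 5′ Gapdh control probe set, a measure of RNA quality, was 1.71 to 2.28, 1.05 to 1.97, 0.05 to 1.05 and 0.16 to 0.30 at these times. The same ratio for beta-actin was −0.18 to 0.24, 0.17 to 1.24, 0.16 to 0.35 and 0.30 to 0.43. These 2 controls did not order the times alike, and only the Gapdh ratio was used as a covariate. In whole skin, more cells of a type and more RNA per cell cannot be told apart.

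**Figure D1:**
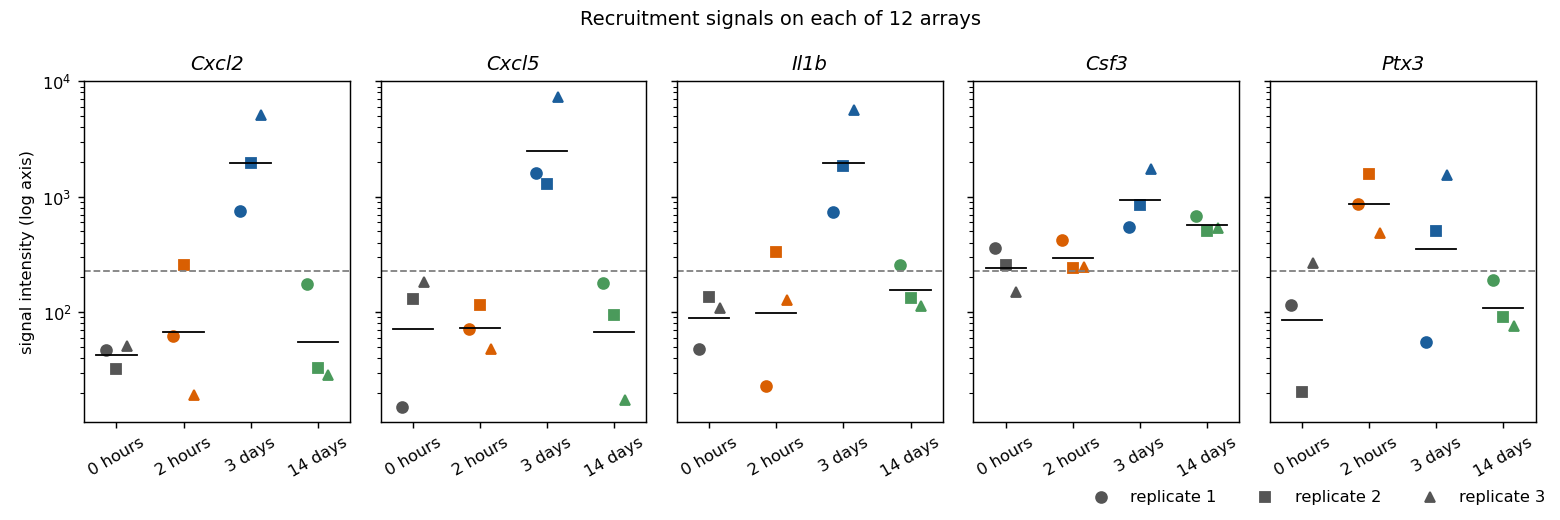
Signal intensity (log axis) of the 5 recruitment signals on the 12 arrays by time after injury, with 1 marker shape per replicate number, a bar at the geometric mean of 3 arrays and a dashed line at the background limit of 225.375. Cxcl2, Cxcl5 and Il1b stand above the line at 3 days on all 3 arrays, Ptx3 stands above it at 2 hours on all 3, and Csf3 lies near or above it throughout.

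The chemokine Cxcl2 (probe set 101160_at, gene at chr5:90903899-90905938) was high at 3 days alone among the 4 times. Its intensities were 46.7, 32.5 and 51.0 at 0 hours, 62.5, 254.1 and 19.1 at 2 hours, 751.8, 1969.5 and 5152 at 3 days, and 174.8, 32.9 and 28.7 at 14 days. All 3 arrays of 3 days lay above the other 9, of which only 2 hours replicate 2 passed the background limit. Cxcl2 rose at least 8.73-fold from 0 hours to 3 days (log2 change 3.13 ± 0.45, limma adjusted p = 0.00054) and was at least 8.39-fold higher than at 2 hours. It fell by at least 3.13 ± 0.45 on the log2 scale from 3 to 14 days, with all arrays of 14 days back under the limit. The changes from 0 to 2 hours (0.06 ± 0.45) and from 0 hours to 14 days (0.00 ± 0.45) were not called. All arrays of 0 hours and 14 days were set to the limit, which makes the rise and the fall equal and the latter change 0.00 by construction.

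Cxcl5 (98772_at, chr5:90759298-90761625), a chemokine known chiefly from epithelial cells, was also high at 3 days and near background at every other time. Its intensities were 15.2, 130.8 and 183.7 at 0 hours and 71.4, 115.1 and 47.7 at 2 hours. They were 1593, 1288 and 7381 at 3 days and 180.3, 94.1 and 17.5 at 14 days. The 9 arrays outside 3 days were all near background and have no order there, while the lowest value at 3 days was 1288. The rise from 0 hours to 3 days was at least 10.98-fold (3.46 ± 0.44, limma adjusted p = 0.00029). The fall from 3 to 14 days is also a lower bound. It has the same size by construction, since all arrays of 0 hours and 14 days were set to the limit.

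Il1b (103486_at, chr2:129364569-129371164) followed the course of Cxcl2 closely. Its intensities were 48.1, 135.2 and 109.5 at 0 hours, 23.1, 334.3 and 126.8 at 2 hours, 744.2, 1859.6 and 5595 at 3 days, and 257.2, 132.7 and 113.1 at 14 days. Again 2 hours replicate 2 was the high array of its time, and replicate 1 was the high array at 14 days. The cytokine rose at least 8.78-fold from 0 hours to 3 days (3.13 ± 0.48, limma adjusted p = 0.00068). It fell by at least 3.07 ± 0.48 from 3 to 14 days (limma adjusted p = 0.0017). It lost that second call with no brightness filter (limma adjusted p = 0.053). Its change at 2 hours was 0.19 ± 0.48 and was not called.

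Csf3 (94142_at, chr11:98700183-98703631) was the member least often near background, and its later course differed in outline. Its intensities were 363.1, 253.9 and 150.1 at 0 hours and 424.0, 242.8 and 245.7 at 2 hours. They were 541.9, 856.4 and 1753 at 3 days and 687.0, 508.1 and 531.7 at 14 days. Every array of 3 days and of 14 days lay above every array of 0 and 2 hours, while 3 and 14 days overlapped. Csf3 rose at least 3.40-fold from 0 hours to 3 days (1.76 ± 0.35, limma adjusted p = 0.0050) and 3.18-fold from 2 hours to 3 days (1.67 ± 0.35, limma adjusted p = 0.0099). Leaving out 2 hours replicate 3 ended the second call (limma adjusted p = 0.052). At 14 days it was 1.05 ± 0.35 above 0 hours and 0.96 ± 0.35 above 2 hours on the log2 scale, neither of which was called (limma adjusted p = 0.070 and 0.090), and the difference from 3 days was −0.71 ± 0.35 (limma adjusted p = 0.49). Both differences were called when either 3 days replicate 1 (limma adjusted p = 0.038 and 0.049) or 3 days replicate 3 (limma adjusted p = 0.023 and 0.031) was left out of the shared variance, without any change in their size.

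Ptx3 (92731_at, chr3:66219887-66225806) had its highest mean at 2 hours. Its intensities were 114.9, 20.4 and 265.6 at 0 hours, 869.5, 1567 and 484.7 at 2 hours, 55.0, 505.0 and 1534 at 3 days, and 188.7, 90.5 and 75.8 at 14 days. All 3 arrays of 2 hours lay above all of 0 hours and 14 days, whereas the arrays of 3 days ran from near background to the level of the highest array of 2 hours. The pentraxin rose at least 3.66-fold from 0 to 2 hours (1.87 ± 0.52, limma adjusted p = 0.048). That call was close to the threshold and was lost without any of 9 of the 12 arrays. These were all 3 of 0 hours, 2 hours replicates 1 and 2, 3 days replicate 2 and all 3 of 14 days, and the adjusted p over the 12 omissions was 0.0063 to 0.18. From 2 hours to 14 days Ptx3 fell by at least 1.95 ± 0.52 (limma adjusted p = 0.024). It lost that call without 2 hours replicate 1 or 2, or any 1 array of 14 days (limma adjusted p from 0.055 to 0.12). At 3 days it was 1.23 ± 0.52 above 0 hours, which was not called (limma adjusted p = 0.12) but was called at 1.89 without 3 days replicate 1 (limma adjusted p = 0.012), and stood at 0.50 without 3 days replicate 3.

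All 5 genes passed the limma F-test over the 4 times (adjusted p from 0.00018 for Cxcl5 to 0.027 for Ptx3), as did 21.2% of all genes tested. Cxcl2, Cxcl5 and Il1b entered that test only through high values at 3 days, so this share is no fair yardstick for them. Between 0 and 2 hours 1 of the 5 genes was called, Ptx3, upward, where 5.67% of all genes were called in either direction (139 higher and 58 lower). Its arrays of the 2 times did not overlap, which held for 23.4% of all genes. From 0 hours to 3 days 4 of 5 were called and had no overlap of arrays, all upward and all but Ptx3, against 13.3% called (309 higher and 153 lower) and 28.6% without overlap. From 2 hours to 3 days the same 4 genes were called higher without overlap, against 9.40% called and 35.2% without overlap. Cxcl2, Cxcl5 and Il1b were the 3 called from 3 to 14 days, all lower and without overlap, against 3.39% called and 19.7% without overlap. None was called by limma at 14 days against 0 hours, where 10.2% of genes were, and 1, Csf3, had an unadjusted p under 0.05 (0.0097) and no overlap, against 29.1% without overlap. From 2 hours to 14 days 1 was called, Ptx3, downward, against 12.3%, and 2 had no overlap, Ptx3 and Csf3, against 39.7%. These comparisons share arrays and are not independent of each other. Cxcl2, Cxcl5 and Il1b passed the filter only through the 3 arrays of 3 days. Their lack of overlap between 3 days and other times therefore followed from being tested. For these 3 genes the shares over all genes are no fair yardstick in comparisons with 3 days. Csf3 passed the filter only through arrays of 3 and 14 days, and Ptx3 only through arrays of 2 hours and 3 days. The filter thus favoured their separation of those times from the others, and the shares are an uneven yardstick for them too.

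**Figure D2:**
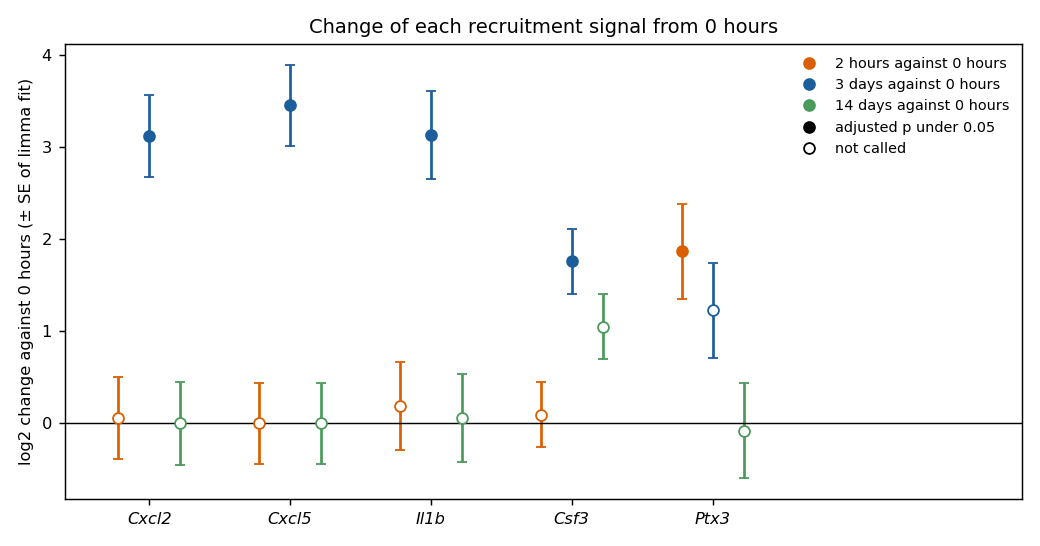
Log2 change of each gene from 0 hours at 2 hours, 3 days and 14 days, with the standard error of the limma fit as bars. Filled points passed an adjusted p of 0.05, as Cxcl2, Cxcl5, Il1b and Csf3 did at 3 days and Ptx3 at 2 hours. Each filled rise is a lower bound, since at least 1 array of 0 hours was at the background limit, and open points near 0 for Cxcl2, Cxcl5 and Il1b compare groups that were both at or near that limit.

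By mean level (SD, n = 3), Cxcl2 stood at 2624 ± 2272 at 3 days, 111.9 ± 125 at 2 hours, 78.8 ± 83.2 at 14 days and 43.4 ± 9.68 at 0 hours. Il1b stood at 2733 ± 2541 at 3 days, 168 ± 78.2 at 14 days, 161 ± 158 at 2 hours and 97.6 ± 44.8 at 0 hours. For both genes the arrays of the last 3 times in that order were mostly near background and overlapped. Cxcl5 differed only between 3 days and the rest. For Csf3 the order was 3 days, 14 days, 2 hours and 0 hours, and only the step between 14 days and 2 hours had no overlap of arrays. For Ptx3 it was 2 hours, 3 days, 0 hours and 14 days, and no neighbouring pair was free of overlap. A pair of genes was compared by the root mean square difference of their floored log2 values over the 12 arrays, each gene centred on its own mean. Among the 5, Cxcl2 and Il1b were closest (0.12), both lay 0.39 to 0.41 from Cxcl5, Csf3 lay 0.93 to 1.07 from these 3, and Ptx3 lay 1.20 to 1.52 from the other 4. Shared values at the limit contribute to the small distances.

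Within arrays, Ptx3 fell relative to the other 4 between 2 hours and 3 days, mostly because those 4 rose, by 1.67 to 3.46. The change of Ptx3 itself was −0.64 ± 0.52, with overlap of arrays, and was not called (limma adjusted p = 0.47). Without 3 days replicate 1 that change was 0.02. The mean log2 difference of Ptx3 minus Cxcl2 was lower at 3 days than at 2 hours by at least 3.71, that of Ptx3 minus Cxcl5 by at least 4.10, that of Ptx3 minus Il1b by at least 3.58 and that of Ptx3 minus Csf3 by at least 2.31. These are bounds, since Cxcl2 and Il1b were near background on 2 arrays of 2 hours and Cxcl5 on all 3, and Ptx3 on 1 array of 3 days. They describe a contrast seen in these same values. An exact permutation test gave p = 0.1 for each of the 4 differences. That is the smallest p it can reach with 3 arrays against 3, so it could not decide.

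Over all 3477 genes tested, the genes nearest to Cxcl2, to Cxcl5 and to Il1b were the other 2 of these 3 and then Slfn4, a Schlafen family gene of myeloid cells, at 0.39, 0.43 and 0.44. Slfn4 rose by 2.91 at 3 days and differed from 0 hours by −0.13 and −0.08 at 2 hours and 14 days, which were not called. Nearest to Csf3 were Cyba (0.33), a subunit of the phagocyte oxidase, Ninj1 (0.33), a cell surface protein with a part in membrane rupture, and Tgfb1 (0.35), a growth factor of wound repair. These 3 rose at 3 days by 1.40, 1.64 and 1.64, and at 14 days the differences from 0 hours were 0.67, 0.64 and 1.26, of which that of Tgfb1 was called (limma adjusted p = 0.046). Nearest to Ptx3 were Phlda1 (0.40), Socs3 (0.40), a feedback inhibitor of cytokine signalling, and Bcl3 (0.52), a nuclear partner of NF-kB. Their differences from 0 hours were 1.26, 1.74 and 1.38 at 2 hours, 1.08, 1.52 and 1.77 at 3 days, and 0.01, −0.24 and −0.05 at 14 days, with those of Socs3 and Bcl3 called at 2 hours and 3 days and those of Phlda1 not (limma adjusted p = 0.057 and 0.062).

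The 3 arrays of 3 days differed widely among themselves. The highest array exceeded the lowest 6.85-fold for Cxcl2, 5.73-fold for Cxcl5, 7.52-fold for Il1b, 3.24-fold for Csf3 and 27.9-fold for Ptx3. Replicate 3 was the highest of its time for 5 of 5 genes, and replicate 1 the lowest for all but Cxcl5. The change of Cxcl2 from 0 hours was 2.43 without replicate 3 and 3.82 without replicate 1. For Il1b these were 2.38 and 3.84, and for Cxcl5 2.67 without replicate 3 and 3.93 without replicate 2. The calls of these 3 genes at 3 days held without any of the 12 arrays, with the set of tested genes kept fixed. The 3 genes passed the filter through exactly the 3 arrays of 3 days. Without 1 of those arrays they would have failed it, so these omissions are no independent check of their calls.

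Other measures moved with the replicates of 3 days. The Gapdh log2 ratio was 1.05, 0.47 and 0.05 in replicates 1, 2 and 3. With that ratio as a covariate, none of the 5 genes was called at 3 days against 0 hours. The changes were 1.30 for Cxcl2, 2.08 for Cxcl5, 1.24 for Il1b, −0.14 for Csf3 and −0.91 for Ptx3, and 4 of all 3477 genes were called. With the mean of the muscle genes as covariate instead they were 1.77, 2.12, 1.63, 1.20 and −0.20, with 5 of all genes called. Both covariates follow time after injury, so their part in the result cannot be told apart from time with these arrays. From 3 to 14 days, where the Gapdh ratio ranges overlap, the falls of Cxcl2, Cxcl5 and Il1b were as large with that covariate (−3.52, −3.75 and −3.47), and Csf3 and Ptx3 were then also called lower (−1.12 and −1.77).

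The ligand most related to Cxcl2, Cxcl1, was measured by 2 probe sets. The brighter read 236.8, 20.4 and 271.9 at 0 hours, 411.2, 1798 and 206.0 at 2 hours, 263.6, 722.7 and 4746 at 3 days, and 109.9, 27.5 and 102.5 at 14 days. Single arrays carried the high means, 2 hours replicate 2 and 3 days replicate 3. Both times overlapped with 0 hours, while all arrays of 14 days lay below all of 3 days. Its changes of 1.17 ± 0.81 at 2 hours and 1.99 ± 0.81 at 3 days were not called (limma adjusted p = 0.42 and 0.11). The weaker probe set had its highest value on the same 2 arrays (1029 and 3386). The receptor Cxcr2 passed the background limit on 1 of 12 arrays, 3 days replicate 3 (249.2), and was not bright enough to be tested. Of the 9 genes listed as chemokines of this class and their receptors, 5 had a probe set and 3 were tested, and Cxcl2 and Cxcl5 were the genes called.

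**Figure D3:**
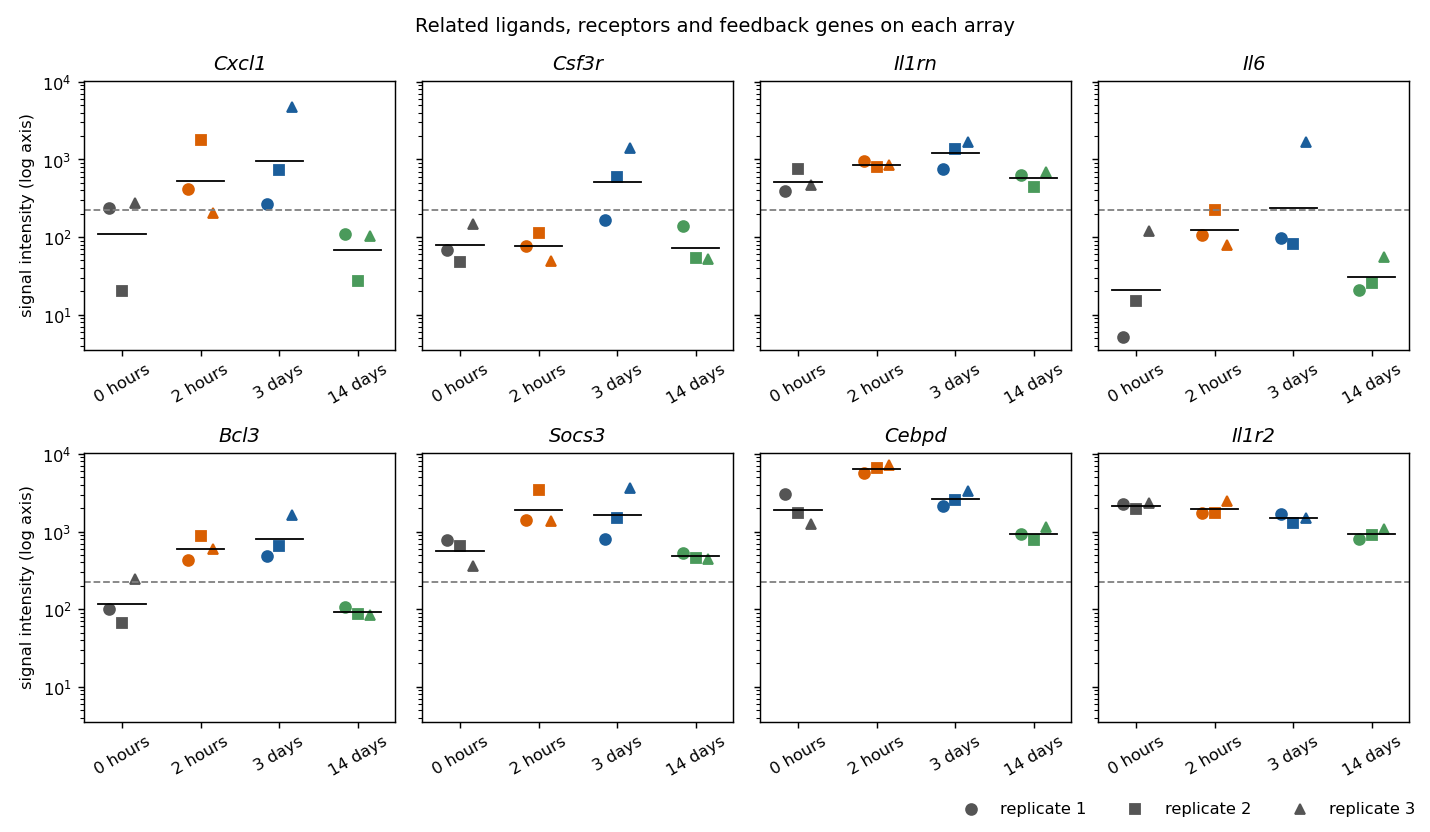
Signal intensity (log axis) of related ligands, receptors and feedback genes on the 12 arrays, with replicate shapes, geometric mean bars and the background limit drawn as in the plot of the 5 signals. Cxcl1 and Il6 are high on single arrays, Csf3r is above the limit on 2 arrays of 3 days, and Cebpd is highest at 2 hours.

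In the interleukin 1 list, 12 of 24 genes had a probe set and 8 were tested. Among them 2 were called higher at 3 days and 1 lower at 14 days. The 2 were Il1b and Il1rn, the natural receptor antagonist, which was 388.0, 751.8 and 465.1 at 0 hours and 746.4, 1381 and 1663 at 3 days. Il1rn rose by 1.22 ± 0.30 (limma adjusted p = 0.016), with replicate 1 of 3 days inside the range of 0 hours. The signalling receptor Il1r1 differed by 0.71 ± 0.27 at 2 hours and 0.56 ± 0.27 at 3 days, neither called (limma adjusted p = 0.13 and 0.18). Il1r2, the decoy receptor, read 2247, 1946 and 2308 at 0 hours and 812.0, 912.4 and 1081 at 14 days, a fall of 1.22 ± 0.20 (limma adjusted p = 0.0023). Its weaker probe set read 899.4, 1534 and 1384 and then 915.8, 710.7 and 1068, with overlap. Il1a, the other agonist of Il1r1, reached 452.7 on 3 days replicate 3 and was not tested. The median log2 change of the list at 3 days was 0.42, against 0.02 over all genes.

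On the G-CSF side, 17 of 22 listed genes had a probe set and 13 were tested. At 2 hours Cebpd and Socs3 were called higher, at 3 days Csf3 and Socs3, and at 14 days Cebpd was called lower than at 0 hours. The median log2 change at 3 days was 0.51. Cebpd, a transcription factor of the acute phase response, read 3019.8, 1748 and 1264 at 0 hours, 5728, 6617 and 7140 at 2 hours, 2104, 2568 and 3291 at 3 days, and 917.8, 783.6 and 1162 at 14 days. Its rise at 2 hours was 1.78 ± 0.28 (limma adjusted p = 0.0021), without overlap of arrays. Socs3 rose by 1.74 ± 0.47 at 2 hours and 1.52 ± 0.47 at 3 days (limma adjusted p = 0.042 and 0.044). The receptor Csf3r, carried by neutrophils, read 68.6, 47.7 and 145.4 at 0 hours and 167.4, 596.1 and 1391 at 3 days on its brighter probe set. It was under the limit on 10 of 12 arrays and failed the brightness filter, and without the filter its change of 1.34 ± 0.51 was not called (limma adjusted p = 0.16). Il6 was above the limit on 1 array, 3 days replicate 3 (1705).

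The tested partners of pentraxins were called against 0 hours at 3 days, and Ptx3 at 2 hours. Ptx3 was itself 1.23 ± 0.52 above 0 hours at 3 days, which was not called. Its change from 2 hours to 3 days was not called either (limma adjusted p = 0.47), so these calls alone do not show a difference in timing. Of 19 listed genes 11 had a probe set and 6 were tested. At 2 hours Ptx3 was the 1 called, and at 3 days the 5 others were called higher, with a median of 1.88. These were the Fc receptors Fcgr2b (2.20 ± 0.25) and Fcgr1 and the complement genes C1qa, C1qb and C1qc, all 5 also in the macrophage list. The weaker C1qb probe set went the other way without overlap. It read 432.5, 404.6 and 520.5 at 0 hours and 341.6, 241.7 and 302.9 at 3 days. C1qa, a subunit of the complement protein that Ptx3 binds, read 1447, 1267 and 1491 at 0 hours, 2129.8, 546.3 and 836.7 at 2 hours, and 3295, 6311 and 8864 at 3 days. Its change was −0.50 ± 0.41 at 2 hours, not called, and 2.03 ± 0.41 at 3 days (limma adjusted p = 0.0050).

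Of 24 listed genes of NF-kB signalling, 16 had a probe set and 11 were tested, with 1 called higher at 2 hours and 2 at 3 days, and a median log2 change of 0.53 at 3 days. Bcl3 was 99.2, 65.8 and 248.2 at 0 hours, 428.0, 866.2 and 595.9 at 2 hours, 481.5, 641.8 and 1633 at 3 days, and 105.2, 87.7 and 85.0 at 14 days. Both middle times lay wholly above both outer ones. Bcl3 rose by 1.38 ± 0.35 at 2 hours and 1.77 ± 0.35 at 3 days (limma adjusted p = 0.036 and 0.0048), which are lower bounds. The tumour necrosis factor receptor Tnfrsf1b rose by 1.21 ± 0.21 at 3 days. Tnfrsf1a differed by 0.61 ± 0.17 and 0.53 ± 0.17 at 2 hours and 3 days, not called (limma adjusted p = 0.053 and 0.055), and Zfp36, which destabilises cytokine mRNAs, by 0.07 ± 0.42 and −0.41 ± 0.42, also not called.

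Of 20 listed adhesion genes of leukocyte traffic, 14 had a probe set and 6 were tested, with 2 called higher and 1 lower at 3 days and a median of 0.18. Selplg, the leukocyte ligand of P-selectin, rose by 1.39 ± 0.25 and F11r, a junctional adhesion molecule, by 1.02 ± 0.21, while Cd99l2 fell by 0.82 ± 0.24. Itgax, an integrin of myeloid cells, differed by −0.06 ± 0.26 at 3 days and 0.75 ± 0.26 at 14 days, neither called. E-selectin (Sele) was near background on all 12 arrays.

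Markers of the cells that these signals attract were set beside them. Of 33 listed neutrophil genes 13 had a probe set and 5 passed the filter. At 3 days 4 of the 5 were called higher, the calgranulins S100a8 (at least 30.6-fold) and S100a9 (at least 17.8-fold), Mmp9 (2.09 ± 0.33) and Cyba (1.40 ± 0.23), and at 14 days 1, Mmp9 (1.67 ± 0.33). The calgranulins and Mmp9 are also made by wound epidermis. The fifth tested gene, Hp, differed by 0.21 ± 0.37 at 3 days and was not called. Of the 8 too dim to be tested, Lcn2 and Ncf4 passed the background limit on all 3 arrays of 3 days and on no other. Csf3r passed it on 2 arrays of 3 days, Cxcr2, Chil3 and Padi4 on 1, and Fpr2 on none. Elane read 189.2, 256.0 and 627.0 at 0 hours and 128.9, 378.1 and 258.6 at 3 days, with overlap. The summed intensity of the 13 genes was 8751 to 19939 at 0 hours, 9326 to 14069 at 2 hours, 17780 to 46288 at 3 days and 9062 to 16631 at 14 days, and Hp made up 17104 of the 19939 on 0 hours replicate 1. For 22 macrophage genes it was 17968 to 22579, 16679 to 29372, 51074 to 77604 and 29063 to 32555, and 16 of the 17 tested were called higher at 3 days (median 1.65). Both sums were highest on 3 days replicate 3 and lowest of that time on replicate 1. Keratinocyte markers also moved, with 7 of 15 tested called higher at 3 days and 9 at 14 days. Their summed intensity was 74120 to 95527 at 0 hours, 98605 to 106720 at 2 hours, 173719 to 179828 at 3 days and 142976 to 285750 at 14 days. The part of these cell types in the changes of the 5 signals was not tested.

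**Figure D4:**
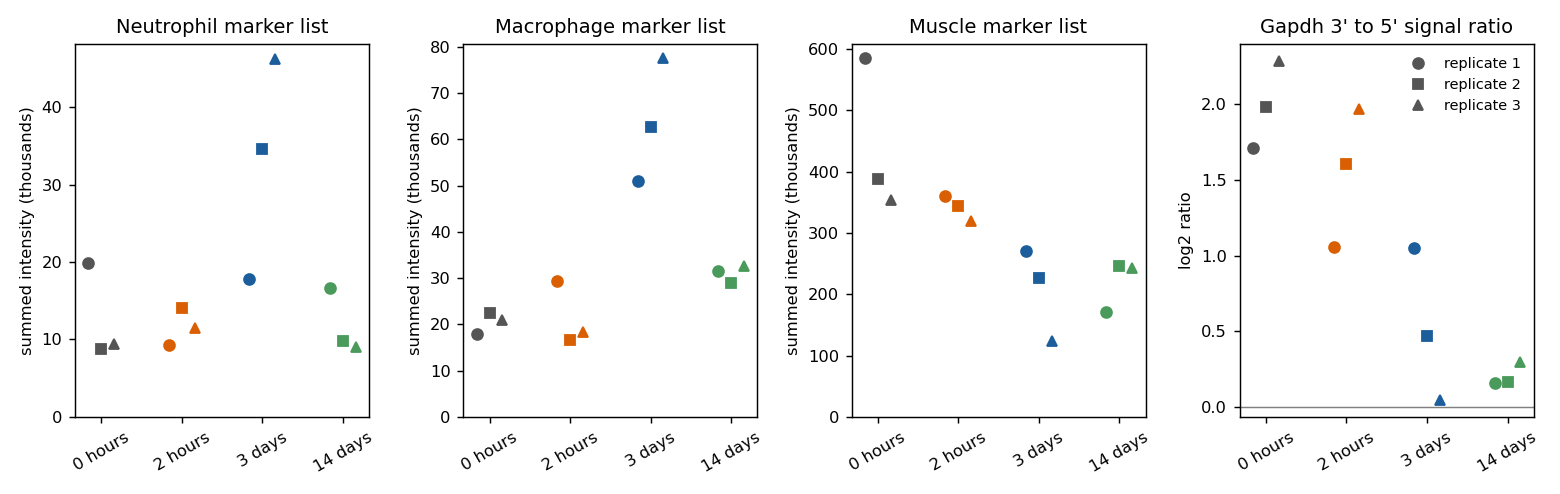
Summed signal intensity of the neutrophil, macrophage and muscle marker lists and the log2 ratio of the 3′ to the 5′ Gapdh control probe sets on the 12 arrays. At 3 days replicate 3 has the highest neutrophil and macrophage sums (46288 and 77604), the lowest muscle sum (122999.9) and the lowest Gapdh ratio (0.05).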

How the data were processed

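The authors deposited 1 linear signal intensity per probe set and array for 12 arrays of total RNA from mouse skin. Their software, scaling and rule for keeping probe sets: not given in the sources used here. Of 7275 probe sets, 27 controls were left out, and 6551 named exactly 1 gene (5599 genes) in the platform annotation, with symbols updated by gene ID. Intensities were not rescaled. They were floored at the pooled 25th percentile, log2-transformed, filtered and reduced to the probe set with the highest mean per gene (3477 genes). limma 3.58.1 (R 4.3.3) was fitted to all arrays, with 1 coefficient per time, 8 residual and 6.64 prior degrees of freedom, and tested on simulated data. Leaving out an array kept floor and genes fixed. Replicate numbers were not taken as pairs, since only 2 of 18 pairs of arrays with equal number correlated above 0.1 (median −0.07). The members, gene lists, comparisons and alternatives were chosen with earlier results of these data known. Named genes are the 5, the 3 nearest to each, called genes of 4 pathway lists with listed receptors and ligands, and up to 4 genes of smallest p from 3 further lists. Hp, Lcn2, Ncf4, Chil3, Padi4, Fpr2, Elane and Sele were named after their values were seen.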

Additional observations from a re-analysis of the deposited data

How the results depend on the processing

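Across 26 alternatives, of which 12 left out 1 array, 756 log2 changes of the 5 genes were recomputed. Of these, 702 stayed on their side of the threshold, 41 lost a call and 12 gained a call, and 1 lost its call with the sign turned, Csf3 at 3 days against 0 hours (−0.14 with the Gapdh ratio as a covariate). In all, 17 changes turned their sign, 8 with the Gapdh covariate, 5 with the muscle covariate and 4 with an array left out, and none of the 17 was called by limma under the alternative. Among them were Csf3 at 14 days against 0 hours (1.05 to −1.26) and against 2 hours (0.96 to −0.77) and Ptx3 at 3 days against 0 hours (1.23 to −0.91), all with the Gapdh covariate. The count called higher at 2 hours against 0 hours (1, Ptx3) became 0 with robust variance, the probe set of highest variance, the floor at the 10th or the 40th percentile, a 75th percentile filter or none, array weights, only the 2 times compared, and the Gapdh or muscle covariate, and was 0 to 1 when arrays were left out. It also became 0 with the replicate number as a block, although the numbers did not pair the arrays, and the block changed no other count of calls among the 5 genes. At 3 days against 0 hours the count of 4 became 1 with the 75th percentile filter, which left only 1 of the 5 genes tested, and 0 with either covariate. It became 5 without 3 days replicate 1, Ptx3 being the gene added. At 3 days against 2 hours the count of 4 became 1 with that filter, 0 with the Gapdh covariate, and 3 with no filter, with the muscle covariate or without 2 hours replicate 3, Csf3 being the gene lost each time. The count higher at 14 days against 0 hours went from 0 to 1 (Csf3) with only the 2 times compared, and was 0 to 1 over left-out arrays. Against 2 hours it went from 0 to 1 with array weights or only the 2 times, and was 0 to 1 over left-out arrays. The count lower at 14 days against 3 days (3) became 1 with the 75th percentile filter, 2 with no filter (Il1b, adjusted p = 0.053), 4 with array weights or without 3 days replicate 1, and 5 with the Gapdh covariate. That against 2 hours (1, Ptx3) became 0 with the floor at the 40th percentile, no filter or the 75th percentile filter, and was 0 to 1 over left-out arrays. With a background limit at the 10th percentile, 20 of 60 values were near background, and at the 40th percentile 38. Except where the filter's construction shows it, the cause of these changes was not tested. Over all genes the calls at 3 days against 0 hours numbered 462, against 216 with only the 2 times, 294 with no filter, 4 with the Gapdh covariate and 5 with the muscle covariate. At 2 hours against 0 hours 197 were called, against 63 with only the 2 times and 316 without 0 hours replicate 2. At 14 days against 0 hours 353 were called, against 153 with only the 2 times and 2 with the Gapdh covariate. At 14 days against 3 days 118 were called, against 364 with array weights and 59 without 14 days replicate 2. At 3 days and 14 days against 2 hours 327 and 427 were called, against 935 and 870 with array weights and 16 and 28 with the Gapdh covariate. Signal over background limits the lower end of each change, since 31 of 60 values were near background.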

Other observations

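At 14 days replicate 1 was the highest of its time for 5 of 5 recruitment signals, although 3 of the 5 values (Cxcl2, Cxcl5 and Ptx3) were near background. Some genes shared by neutrophils and wound epidermis were high on the same array. S100a8 read 6347 there against 685.0 and 1047 on the other 2 arrays, S100a9 read 2115 against 369.4 and 384.9, and Mmp9 read 1354.5 against 593.8 and 514.2. Of the other listed neutrophil genes above the background limit there, Hp (3221) and Elane (333.2) were lowest of that time, and Cyba (2385.5) lay between. The keratinocyte sum (285750) was highest of that time on the same array. At 2 hours replicate 2 was the highest of its time for 4 of the 5 signals, and S100a8 (1983) and S100a9 (1186) were highest there too. So were Mmp9 (227.4) and Hp (8730), whereas Cyba (927.2) and Elane (286.5) were lowest of that time there. The macrophage sum on that array (16679) was the lowest of the 12.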
